A study of Mus musculus with 6 samples.

Results

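The genes described here carry glucose into the heart muscle cell, break it down to pyruvate and lactate, pass pyruvate into mitochondrial oxidation, and store or release glucose as glycogen. They were 34 genes of the 54093 in the expression table, chosen by name from the textbook pathway; where a symbol stood for several rows, the row with the higher mean was taken. RNA was sequenced from the right atrium (RA) of C57BL/6 wild-type mice at postnatal day 21. In the volume overload (VO) group a fistula between the abdominal aorta and the inferior vena cava (ACF) had been made at P7, so that arterial blood returned straight to the right heart, and in the sham group the pups had been operated on without a fistula. There were 3 libraries in each group, named here sham 1 to sham 3 and VO 1 to VO 3, and the comparison asked how the overloaded atrium differed from the control atrium. Male or female pups had been used, and all groups shared the strain, the genotype, the age and an operation. Values are FPKM, that is fragments divided by gene length and by library size, so that levels of different genes can be set side by side. Nothing in the labels says whether the libraries came from separate animals, so p-values measure the spread between these samples, which may be technical.

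Glucose enters the cardiomyocyte through carriers of the GLUT family, is trapped by hexokinase, and is committed to glycolysis at phosphofructokinase. Many steps are served by paralogous enzymes, one of them enriched in heart and skeletal muscle and another used by most cell types. The postnatal heart moves from glycolysis towards fatty acid oxidation while it takes up its adult, insulin-responsive glucose carrier and its muscle enzymes.

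The libraries held 15963082 to 17237903 fragments on genes, and for each kilobase of gene 15.6 to 18.1 fragments made up an FPKM of 1, so that counting error was small for most of the 34 genes. Of the defining markers of cardiomyocytes all 10 were present, with a summed level of 14691 to 20858 FPKM in the sham libraries and of 6982, 14003 and 10574 FPKM in VO 1, VO 2 and VO 3. The largest parts of the sum were Myl7, Nppa and Myh6, at 8501, 5513 and 2605 FPKM in sham 1. By sign 9 of the 10 were lower in VO and 1, Pln, was higher. Pln was at 133, 136 and 166 FPKM in sham and at 142, 151 and 181 FPKM in VO. Ryr2 overlapped between the groups, at 46.8 to 59.4 FPKM in sham and 46.1 to 57.0 FPKM in VO. Markers of other cells differed between libraries as well. The 6 macrophage markers summed to 134.1 to 195 FPKM in sham and to 380, 151 and 179.5 FPKM in VO. Cd68, Csf1r and Adgre1 were higher in every VO library, whereas C1qa, C1qb and Cd163 overlapped between the groups. The 6 fat markers summed to at most 8.21 FPKM in 5 libraries and to 623 FPKM in VO 3, where Ucp1 was at 254 FPKM and at 0 in the other 5. The 5 red cell markers summed to 6972 and 8580 FPKM in sham 1 and VO 1 and to 695 to 2382 FPKM in the other 4, and the ventricular light chain Myl2 was at 60.4, 2.02 and 56.0 FPKM in sham and at 6.95, 1.54 and 20.6 FPKM in VO. Sham 1 and VO 1 are also the libraries that most often were highest and lowest among the members. The 6 endothelial markers summed to 189 to 200.1 FPKM in sham and 196 to 206 FPKM in VO, and the fibroblast markers to 851 to 895 and 887 to 1278 FPKM. Of the smooth muscle and pericyte markers, Rgs5 and Pdgfrb were higher and Acta2 and Cnn1 lower in every VO library. The 8 skeletal muscle markers summed to 147 to 201 FPKM in sham and 58.5 to 102 FPKM in VO, nearly all of it Ckm, the creatine kinase that heart muscle shares, at 199, 143 and 143 FPKM in sham and at 56.4, 101 and 98.4 FPKM in VO. The skeletal myosin Myh1 was at 0 in all libraries, and Myh2 and Myh4 were at most at 0.08 FPKM. The part of these cells in the results below was not tested. In a piece of tissue, fewer cells of a type and less RNA per cell cannot be told apart.

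Phosphoglycerate mutase and enolase are the pairs in which the muscle enzyme and the general enzyme lay furthest apart between the groups, and the choice was made after the values were seen, so the 250 bases upstream of their start sites are printed, 5′ to 3′ on the strand of the gene, from RefSeq (GRCm38.p6). Capitals mark the E-box CANNTG, the letters bound by myogenic and other basic helix-loop-helix factors, which reads the same on both strands. The window of Pgam2 (chr11:5803797-5804046, minus strand) held 5 matches, that of Eno3 (chr11:70656926-70657175, plus strand) 1, that of Pgam1 (chr19:41911621-41911870, plus strand) 0 and that of Eno1 (chr4:150236458-150236707, plus strand) 2.
Pgam2 (muscle): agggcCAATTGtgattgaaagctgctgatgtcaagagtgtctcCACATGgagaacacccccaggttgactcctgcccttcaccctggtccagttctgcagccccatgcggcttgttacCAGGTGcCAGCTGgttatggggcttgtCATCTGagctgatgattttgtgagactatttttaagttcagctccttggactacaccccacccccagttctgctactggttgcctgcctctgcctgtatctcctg
Eno3 (muscle): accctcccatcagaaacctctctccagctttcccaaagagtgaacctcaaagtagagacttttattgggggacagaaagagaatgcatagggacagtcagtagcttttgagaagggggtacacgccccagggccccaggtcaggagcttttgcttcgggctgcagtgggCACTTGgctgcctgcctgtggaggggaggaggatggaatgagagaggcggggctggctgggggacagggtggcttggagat
Pgam1 (general): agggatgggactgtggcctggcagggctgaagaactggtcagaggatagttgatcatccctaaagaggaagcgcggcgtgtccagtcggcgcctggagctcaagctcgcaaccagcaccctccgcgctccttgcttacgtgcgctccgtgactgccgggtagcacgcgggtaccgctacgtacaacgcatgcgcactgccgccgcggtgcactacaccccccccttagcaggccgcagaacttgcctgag
Eno1 (general): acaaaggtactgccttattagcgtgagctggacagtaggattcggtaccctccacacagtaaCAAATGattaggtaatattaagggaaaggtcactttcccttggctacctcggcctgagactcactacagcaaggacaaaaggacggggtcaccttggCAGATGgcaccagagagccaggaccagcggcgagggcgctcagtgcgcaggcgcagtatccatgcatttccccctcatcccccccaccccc

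An E-box was held by 66.2% of all 32851 windows of this length and by 22 of the 33 members with a window, so its presence alone is common. The letters ACGTG, read on both strands and shared by the hypoxia response element and by one form of the E-box, were in 10 of the 33 windows and in 16.6% of all windows. The GC box GGGCGG was in 16 of the 33 and in 32.7% of all. The TATA box TATAAA was in 0 of the 33 and in 12.4% of all. A match of letters is a description of the sequence and not a bound site.

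No member passed the test after adjustment over the 12627 genes that reached a mean of 1 FPKM (limma with Benjamini-Hochberg adjustment), where 1 gene or 0.00792% passed. The members' adjusted p ran from 0.410 for Eno3 to 0.974 for Phkg1. At an unadjusted p under 0.05, 1 of the 33 tested members (3.03%) was lower in VO and 0 were higher, while of all tested genes 8.08% were lower and 3.89% higher, so that these shares do not set the members apart. In 8 members (24.2%) every VO library lay under every sham library, against 12.9% of all tested genes, and in 0 members did every VO library lie above, against 8.25%. These 8 were Slc2a4, Hk2, Pfkm, Tpi1, Pgam2, Eno3, Ldhb and Pygm. The count depended on the scaling between libraries. With FPKM divided by its sum in each library (TPM), only Eno3 and Ldhb lay apart in this way, with Pdk1 apart in the other direction, against backgrounds of 5.67% and 16.6%. With fragment totals as library sizes, Eno3 was the one left among the lower members, with Pdk1 again higher, against 7.57% and 14.5%.

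By sign, 26 of the 33 tested members were lower in VO and 7 higher. Their median log2 fold change was -0.26. Of all tested genes 51.5% were lower, and their median was -0.01. Fold changes are on the log2(FPKM + 0.1) scale throughout. The median was -0.11 without VO 1 and -0.39 without VO 3, and it was -0.17 with fragment totals, -0.12 in TPM, -0.12 with array weights and -0.056 with quantile normalization, with the median of all tested genes at 0.13 in TPM. VO 1 was the lowest of the 6 libraries in 25 of 33 members. VO 2 was under the sham mean in 27 members and VO 3 in 19, and VO 3 was the highest library in 6. On the other side, sham 1 was the highest library in 16 members.

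**Figure D1:**
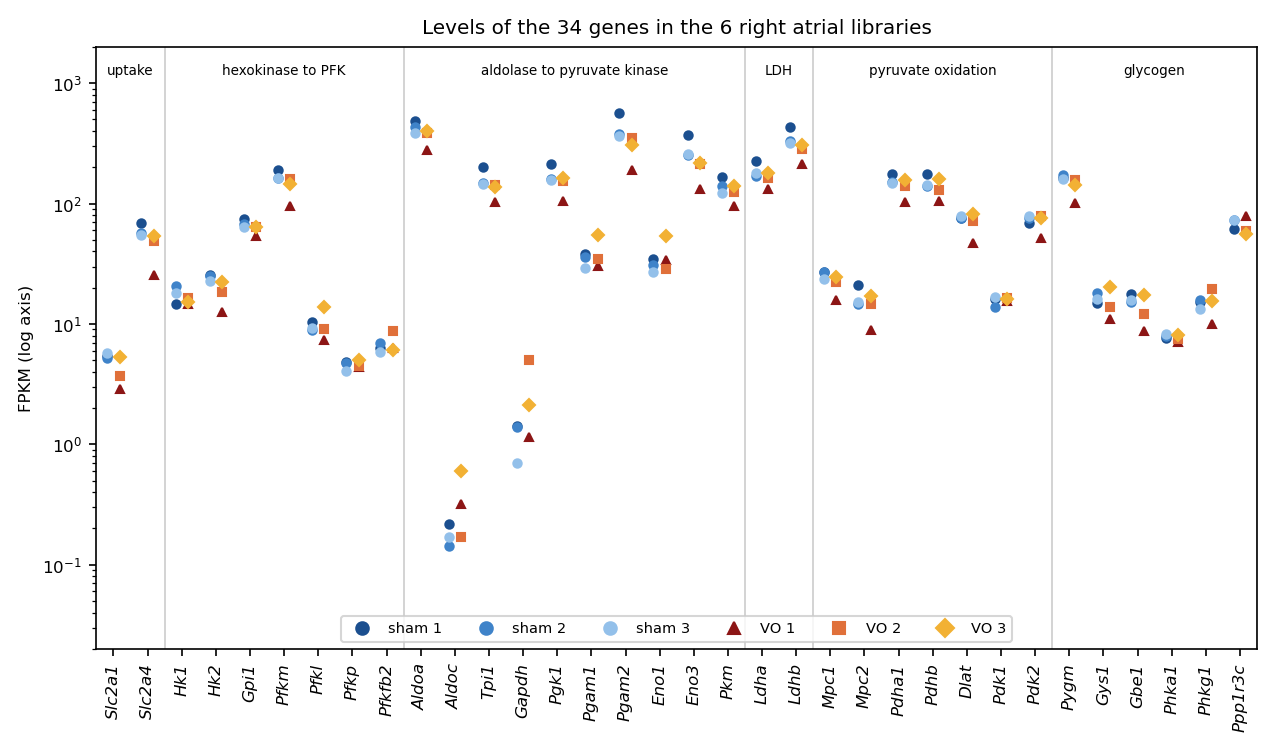
Level of each of the 34 genes in FPKM on a log axis, by step of the pathway, with 1 point per library (circles for sham 1 to 3, a triangle for VO 1, a square for VO 2 and a diamond for VO 3). The levels run from under 1 FPKM for Aldoc to over 500 FPKM for Pgam2 in sham 1, and the VO 1 triangle is the lowest point in 25 of the 33 tested genes.

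Both glucose carriers had a log2 fold change below 0. Slc2a4 (GLUT4, chr11:69942539-69948188), the insulin-responsive carrier of muscle and fat, was at 68.8, 56.9 and 55.1 FPKM in sham and at 25.5, 48.8 and 53.9 FPKM in VO. The groups did not overlap, but VO 3 came close to sham 3. The means were 60.3 ± 7.46 in sham and 42.7 ± 15.1 in VO (SD, n = 3), with a log2 fold change of -0.56 ± 0.28 (SE; limma, Benjamini-Hochberg adjusted p = 0.435), and of -0.23 without VO 1. The study reported this gene significantly lower in VO by qRT-PCR. It had been chosen for that assay of T-tubule genes from the genes lower in these samples, so that its direction here is not independent evidence. The primers of that assay are shown because they fix which part of the transcript it reads.
Slc2a4 forward: gtgactggaacactggtccta
Slc2a4 reverse: ccagccacgttgcattgtag

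The forward primer lies at chr11:69946640-69946660 in exon 2 of the transcript of 11 exons, and the reverse primer at chr11:69946425-69946444 in exon 3 (GRCm38; the gene is on the minus strand), with 127 bases from end to end. Both primers match 5 of the 8 transcripts annotated in GENCODE M21, so that the assay and the FPKM value do not count the same set of transcripts. Slc2a1 (GLUT1), the carrier of most cell types and of the fetal heart, was much lower than Slc2a4, at 5.39, 5.20 and 5.75 FPKM in sham and at 2.86, 3.67 and 5.34 FPKM in VO. VO 1 and VO 2 were under all sham libraries and VO 3 was among them. The log2 fold change was -0.49 ± 0.22 (adjusted p = 0.414), and -0.73 without VO 3.

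From hexokinase to phosphofructokinase, 4 of 7 members were lower in VO by sign, with a median of -0.18. Hk2, the insulin-regulated hexokinase of muscle, was at 25.5, 24.8 and 22.6 FPKM in sham and at 12.6, 18.4 and 22.4 FPKM in VO. The groups lay just apart, with VO 3 next to sham 3. Its log2 fold change was -0.48 ± 0.21 (limma, Benjamini-Hochberg adjusted p = 0.414), and -0.26 without VO 1. Hk1, the general hexokinase, was at 14.6, 20.7 and 18.1 FPKM in sham and at 14.7, 16.4 and 15.3 FPKM in VO, with overlapping groups and a log2 fold change of -0.19 ± 0.14. Gpi1, which turns glucose-6-phosphate into fructose-6-phosphate, stood at 63.6 to 74.4 FPKM in sham and 53.8 to 64.3 FPKM in VO, at -0.18 ± 0.12 on the log2 scale.

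Pfkm, the muscle subunit of phosphofructokinase, was by far the largest of the 3 subunits. It was read at 189, 164 and 164 FPKM in sham and at 95.6, 159.7 and 147 FPKM in VO. All VO libraries lay lower, VO 2 only just, and the log2 fold change was -0.39 ± 0.21 (adjusted p = 0.445). The liver subunit Pfkl was at 10.4, 8.92 and 9.30 FPKM in sham and at 7.29, 9.16 and 13.9 FPKM in VO. Its lowest and its highest library were thus both in the VO group, and the log2 fold change was 0.04 ± 0.23, or -0.22 without VO 3. The platelet subunit Pfkp was at 4.08 to 4.82 FPKM in sham and 4.41 to 5.03 FPKM in VO, at a log2 fold change of 0.03 ± 0.12. Pfkfb2, the heart form of the enzyme that makes the activator fructose-2,6-bisphosphate, was at 5.82 to 6.91 FPKM in sham and reached 8.66 FPKM in VO 2, and its log2 fold change of 0.12 ± 0.16 was -0.04 without VO 2.

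**Figure D2:**
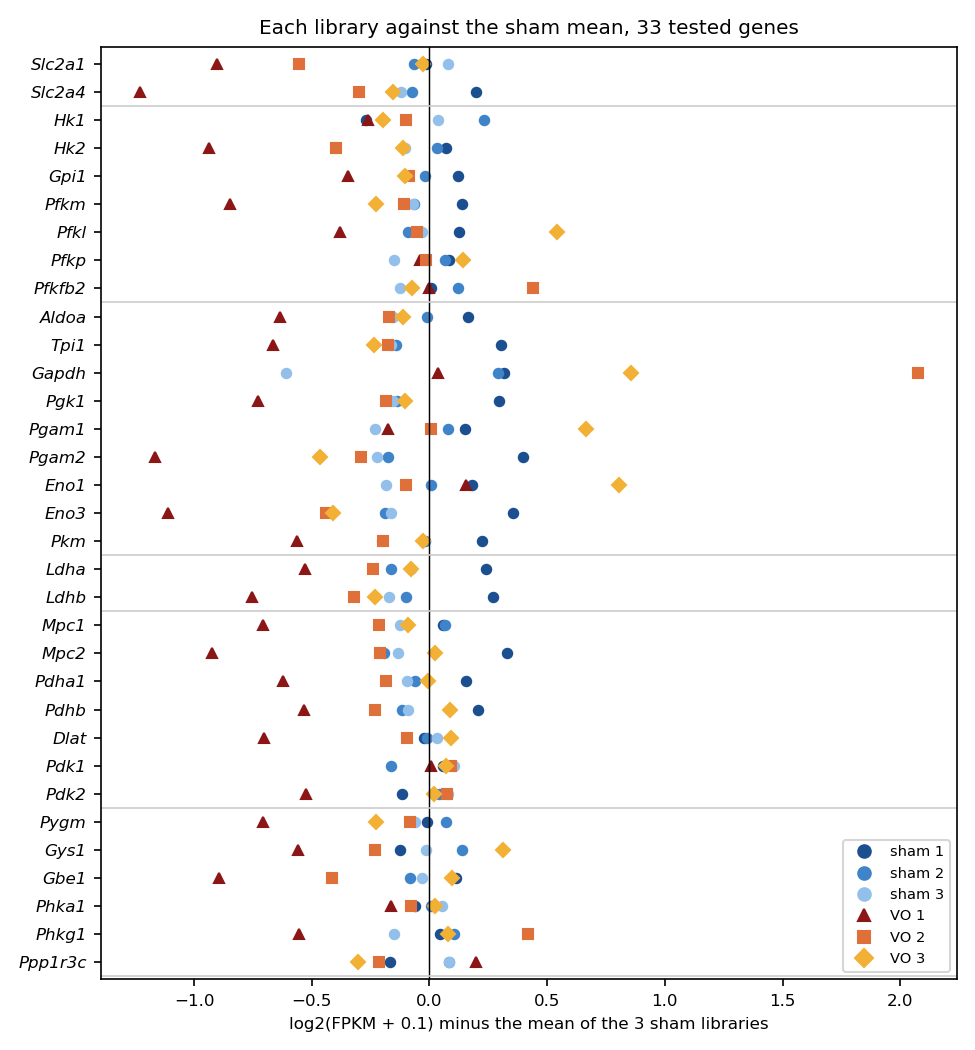
Each library's log2(FPKM + 0.1) minus the mean of the 3 sham libraries for the 33 tested genes, in pathway order with lines between the steps, and with circles for sham 1 to 3, a triangle for VO 1, a square for VO 2 and a diamond for VO 3. VO 1 lies left of 0 in 29 genes and VO 2 in 27, whereas VO 3 lies left in 19 and right in 14.

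From aldolase to pyruvate kinase, 6 of 9 tested members were lower by sign and 3 were higher, with a median of -0.31. The largest sizes among the members lower in VO were here, in the muscle forms of phosphoglycerate mutase and enolase. Pgam2 (chr11:5801640-5803733), which moves the phosphate of 3-phosphoglycerate, was at 561, 377 and 365 FPKM in sham and at 189.7, 348 and 309 FPKM in VO. No VO library reached a sham library. The means were 434 ± 109.7 and 282 ± 82.2 FPKM, and the log2 fold change was -0.64 ± 0.27 (limma, Benjamini-Hochberg adjusted p = 0.414), or -0.38 without VO 1.

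Eno3 (chr11:70657202-70662513), the beta enolase of striated muscle, was at 368, 252 and 257 FPKM in sham and at 133, 212 and 217 FPKM in VO. Every VO library was lower, in TPM and with fragment totals as well. The means were 293 ± 65.4 and 187 ± 47.0 FPKM and the log2 fold change was -0.65 ± 0.24, with an unadjusted p of 0.0301 in limma that became 0.410 after Benjamini-Hochberg adjustment. Over all settings its adjusted p ran from 0.292 to 0.697. Without VO 1 the log2 fold change was -0.43 (unadjusted p = 0.0669), and without VO 3 it was -0.78.

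The general partners of these enzymes did not have lower means in VO. Pgam1 (chr19:41911871-41918664) was at 38.1, 36.2 and 29.2 FPKM in sham and at 30.3, 34.4 and 54.4 FPKM in VO. Eno1 (chr4:150236721-150248879) was at 34.6, 30.7 and 26.8 FPKM in sham and at 34.03, 28.5 and 53.4 FPKM in VO. For both, VO 1 and VO 2 were within the sham range and VO 3 stood above the rest. The log2 fold changes were 0.17 ± 0.23 for Pgam1 and 0.29 ± 0.23 for Eno1, and -0.08 and 0.03 without VO 3, the library with the fat markers. The part of those cells in these values was not tested.

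The other enzymes of this stretch have no muscle and general pair among the members, or one partner was barely read. Aldoa, the aldolase of muscle, was at 484, 429 and 388 FPKM in sham and at 278, 383 and 399 FPKM in VO, a log2 fold change of -0.31 ± 0.18 with VO 3 inside the sham range. Aldoc, the brain aldolase, was at 0.14 to 0.22 FPKM in sham and 0.17 to 0.60 FPKM in VO and was the single member under the filter. Tpi1, which interconverts the triose phosphates, was at 200.3, 147 and 145 FPKM in sham and at 102, 144 and 138 FPKM in VO, with groups just apart and a log2 fold change of -0.36 ± 0.19. Pgk1, the first enzyme to return ATP, was at 157 to 215 FPKM in sham and 106 to 163 FPKM in VO, at -0.34 ± 0.21 on the log2 scale. Pkm, a pyruvate kinase, was at 123 to 165 FPKM in sham and 95.9 to 139 FPKM in VO, at -0.26 ± 0.18 on the log2 scale. FPKM was read for the whole gene, so its transcripts were not told apart.

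Gapdh stood out by its level. It was listed at 0.70 to 1.42 FPKM in sham and at 1.15, 5.03 and 2.10 FPKM in VO, from 47 to 339 fragments, between Tpi1 and Pgk1 at over 100 FPKM on either side of it in the pathway. GAPDH is an abundant enzyme of all cells, and the level of this row is taken as uncertain, with a log2 fold change of 0.99 ± 0.53. The cause of the low level was not tested.

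Both lactate dehydrogenase subunits had a log2 fold change below 0. Ldhb, the heart subunit, was at 431, 333 and 317 FPKM in sham and at 212, 286 and 304 FPKM in VO. All VO libraries were lower, VO 3 by the least, and the log2 fold change was -0.44 ± 0.19 (limma, Benjamini-Hochberg adjusted p = 0.416). Ldha, the subunit of glycolytic muscle and most other tissues, was at 226, 171 and 181 FPKM in sham and at 132, 162 and 181 FPKM in VO. Here VO 3 lay at the level of sham 3, and the log2 fold change was -0.28 ± 0.17.

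At the entry of pyruvate into the mitochondrion, 6 of 7 members were lower by sign, with a median of -0.24, and in none were the groups apart. The pyruvate carrier subunit Mpc1 was at 27.1, 27.2 and 23.8 FPKM in sham and at 15.9, 22.4 and 24.4 FPKM in VO, a log2 fold change of -0.34 ± 0.17. Its processed pseudogene Mpc1-ps was listed higher, at 234 to 359 FPKM in sham and 153 to 226 FPKM in VO, so that reads may be split between both rows and the level of Mpc1 is uncertain. Mpc2, the other subunit, was at 14.7 to 21.2 FPKM in sham and 8.85 to 17.1 FPKM in VO, a log2 fold change of -0.37 ± 0.26.

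The pyruvate dehydrogenase complex turns pyruvate into acetyl-CoA. Its E1 subunits Pdha1 and Pdhb had log2 fold changes of -0.27 ± 0.18 and -0.23 ± 0.18. Pdha1 was at 176, 151 and 147 FPKM in sham and at 102, 139 and 157 FPKM in VO, and Pdhb at 140.0 to 175 FPKM in sham and 105 to 161 FPKM in VO. Dlat, the E2 subunit, was tight in sham, at 75.4, 76.2 and 78.5 FPKM, and spread in VO, at 47.1, 71.9 and 81.7 FPKM. Its log2 fold change of -0.24 ± 0.20 was -0.0012 without VO 1, and so rested on a single library. Of the kinases that inhibit the complex, Pdk2 was counted here as a muscle or heart isoform and Pdk1 as a general one. This assignment was not tested. Pdk2 was at 68.8 to 78.6 FPKM in sham and at 51.8, 78.6 and 75.5 FPKM in VO. Pdk1 was at 13.8 to 16.6 FPKM in sham and 15.5 to 16.5 FPKM in VO. The log2 fold changes of Pdk2 and Pdk1 were -0.14 ± 0.18 and 0.06 ± 0.11.

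All 6 glycogen genes were lower by sign, with a median of -0.13, but TPM turned Phka1, Phkg1 and Ppp1r3c to 0.07, 0.12 and 0.03. Pygm, the glycogen phosphorylase of muscle, was at 164, 173 and 159 FPKM in sham and at 101, 156 and 141 FPKM in VO. The groups did not overlap, with VO 2 next to sham 3, and the log2 fold change was -0.34 ± 0.18 (limma, Benjamini-Hochberg adjusted p = 0.443). Gys1, the glycogen synthase of muscle, had its lowest and highest libraries in VO, at 11.1, 13.9 and 20.4 FPKM against 15.0, 18.0 and 16.2 FPKM in sham. Its log2 fold change of -0.16 ± 0.22 was 0.04 without VO 1 and -0.40 without VO 3.

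Gbe1, the branching enzyme, was at 17.6, 15.4 and 15.9 FPKM in sham and at 8.69, 12.2 and 17.3 FPKM in VO, a log2 fold change of -0.41 ± 0.24 that was -0.65 without VO 3. The muscle subunits of phosphorylase kinase were nearest to no difference. Phka1 was at 7.58 to 8.22 FPKM in sham and 7.06 to 8.04 FPKM in VO, and Phkg1 was at 13.3 to 15.8 FPKM in sham and at 9.97, 19.7 and 15.5 FPKM in VO, with log2 fold changes of -0.07 ± 0.10 and -0.02 ± 0.24. Ppp1r3c, which targets protein phosphatase 1 to glycogen, was highest in VO 1, at 79.5 FPKM, where most members were lowest. Its other VO libraries were at 59.6 and 56.0 FPKM, the sham libraries at 61.7 to 73.4 FPKM, and the log2 fold change was -0.11 ± 0.16.

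**Figure D3:**
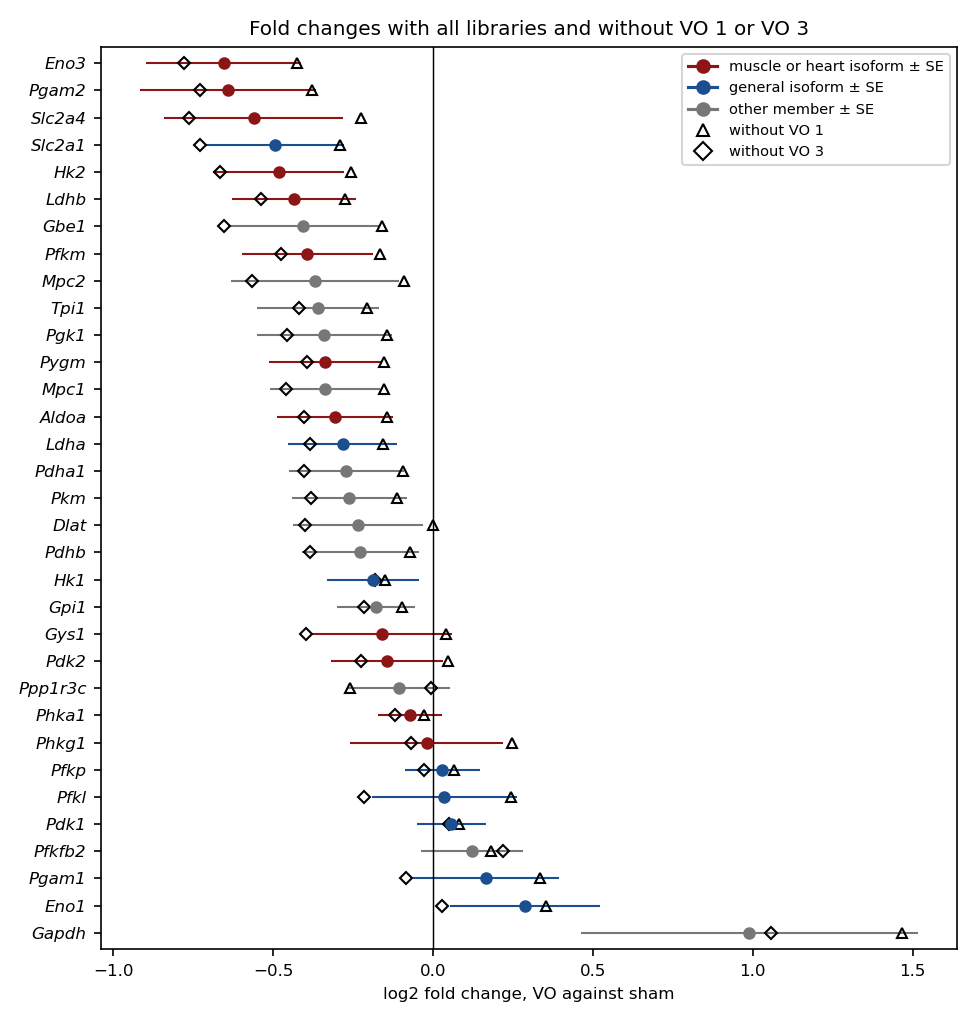
Log2 fold change of VO against sham for the 33 tested genes, ordered by size, with bars of 1 SE and with the value without VO 1 (open triangle) or without VO 3 (open diamond), and with colours for muscle or heart isoforms, general isoforms and other members. The muscle or heart isoforms are all left of 0 with all 6 libraries, but Pdk2, Gys1 and Phkg1 are right of it without VO 1, and in TPM, quantile normalization or fragment totals 2 of the 12 are right of it.

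Set side by side, the muscle or heart isoforms and the general isoforms had different medians. The muscle or heart list held Slc2a4, Hk2, Pfkm, Aldoa, Pgam2, Eno3, Ldhb, Pdk2, Pygm, Gys1, Phka1 and Phkg1. The tested general isoforms were Slc2a1, Hk1, Pfkl, Pfkp, Pgam1, Eno1, Ldha and Pdk1. Pygm, Gys1, Phka1 and Phkg1 had no partner in the general list, and Aldoc, set as the partner of Aldoa, was under the filter. Pfkfb2, a heart form with a log2 fold change of 0.12, was in neither list. The kinase Pdk4 at 0.79 and the brain phosphorylase Pygb at -0.29 were not members and so in neither list. The counts below rest on these choices. All 12 muscle or heart isoforms had a log2 fold change below 0, with a median of -0.37 that was -0.14 after quantile normalization, with 10 of the 12 below 0, while the 8 tested general isoforms had 3 below and 5 above 0, with a median of 0.03. In TPM the numbers below 0 were 10 of 12 and 3 of 8, and the medians -0.23 and 0.17. Of the muscle or heart isoforms, 7 had groups without overlap, all lower in VO, and of the general isoforms 0, against 12.9% of all tested genes on the lower side. In TPM the 7 became 2 and with fragment totals 1, and 1 general isoform, Pdk1, lay apart on the higher side in both. Single libraries bore on this. Without VO 1 the median of the muscle or heart isoforms was -0.16, with 9 of 12 below 0. Without VO 3 the general isoforms had 6 of 8 below 0 and a median of -0.13. In each library the median of the 12 genes against the sham mean was -0.73 in VO 1, -0.20 in VO 2 and -0.13 in VO 3, and that of the 10 cardiomyocyte markers was -0.88, -0.22 and -0.45. Fewer cardiomyocytes in the tissue and less of these transcripts per cardiomyocyte cannot be told apart here.

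**Figure D4:**
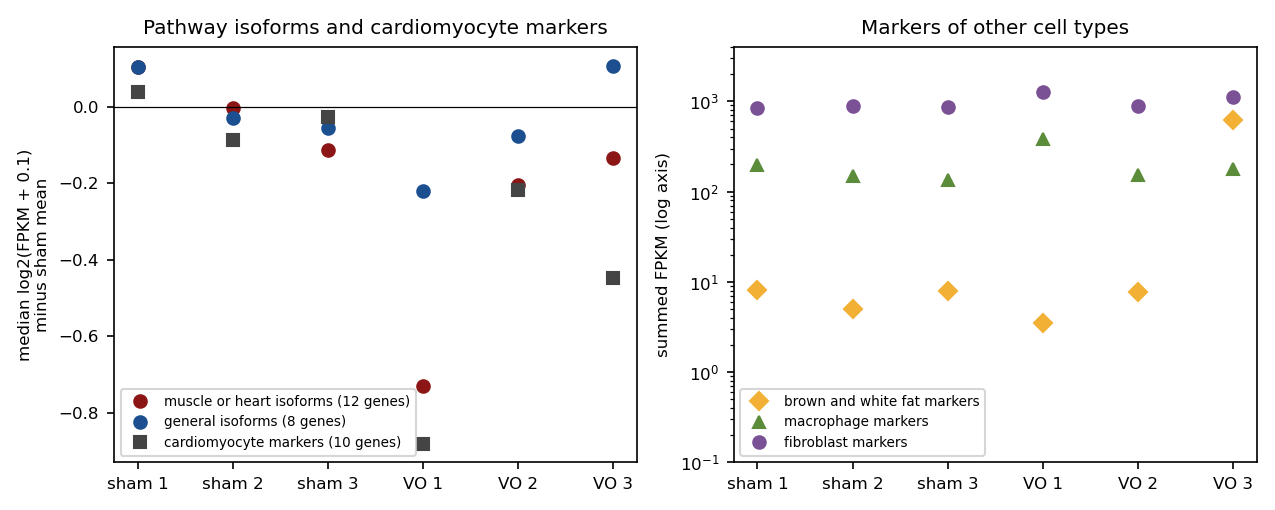
Left, the median of log2(FPKM + 0.1) minus the sham mean in each library for the 12 muscle or heart isoforms (red), the 8 general isoforms (blue, over the red point in sham 1) and the 10 cardiomyocyte markers (grey squares), and right, the summed FPKM of fat, macrophage and fibroblast markers on a log axis. VO 1 is lowest for all 3 lists on the left and highest for macrophages on the right, and VO 3 alone holds 623 FPKM of fat markers.

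The share of a muscle or heart isoform within its family does not depend on the scaling between libraries. In 8 families compared, the mean share was lower in VO in 8 (for Slc2a4 it was 0.34 points higher without VO 1). For the kinases this holds with Pdk2 counted as the muscle or heart form of the pair. For aldolase the partner counted as general was Aldoc, the brain form, which was under the filter with 8 to 32 fragments. The difference there was only -0.06 points. In 3 of the 8, phosphofructokinase, phosphoglycerate mutase and enolase, the groups did not overlap, and there was no share over all genes to set this count against. Eno3 made up 91.4%, 89.2% and 90.6% of the FPKM of Eno1 and Eno3 in sham and 79.6%, 88.2% and 80.2% in VO. VO 1 and VO 3 were far from sham and VO 2 was close. The means were 90.4% ± 1.13 and 82.7% ± 4.75 (SD, n = 3), with an exact permutation p of 0.1, two-sided, the smallest that 3 against 3 can give, and 0.267 after Benjamini-Hochberg adjustment over the 8 families. A p of 0.1 cannot pass the threshold whatever the size of the difference.

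Pgam2 made up 93.6%, 91.2% and 92.6% of its pair in sham and 86.2%, 91.0% and 85.0% in VO, with an exact permutation p of 0.1. Pfkm made up 92.6%, 92.3% and 92.5% of the 3 subunits in sham and 89.1%, 92.1% and 88.6% in VO, again with an exact permutation p of 0.1. In both, as in enolase, VO 2 lay next to the sham libraries. In VO 3 the difference came with high general isoforms and fat markers, and in VO 1 with the lowest muscle isoforms. The muscle isoforms Pfkm, Pgam2 and Eno3 lay under the sham libraries in VO 3 as well. The median of the cardiomyocyte markers against the sham mean was -0.88 in VO 1, -0.45 in VO 3 and -0.22 in VO 2. The part of these in the difference was not tested. Without VO 1 the differences were -6.18 points for Eno3, -4.49 for Pgam2 and -2.08 for Pfkm, and without VO 3 they were -6.48, -3.89 and -1.83 points.

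In the other 5 families the groups overlapped. Slc2a4 made up 91.6% ± 1.09 of both carriers in sham and 91.3% ± 1.56 in VO (exact permutation p = 0.8), and Hk2 57.9% ± 4.96 and 52.8% ± 6.58 of both hexokinases (exact permutation p = 0.4). Ldhb was 65.1% ± 1.32 in sham and 62.7% ± 1.14 in VO of both lactate dehydrogenase subunits (exact permutation p = 0.2), and Pdk2 was 82.8% ± 1.85 and 80.7% ± 3.20 of both kinases (exact permutation p = 0.5). Aldoa took 99.96% of its family in sham and 99.90% in VO (exact permutation p = 0.2).

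**Figure D5:**
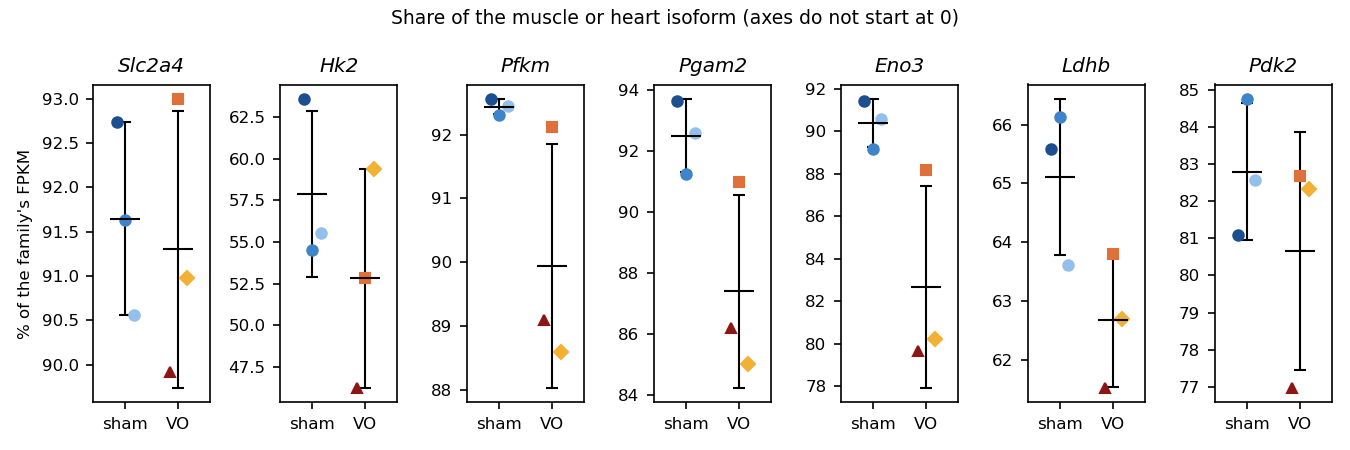
Share of the muscle or heart isoform in the FPKM of its family, in percent, in each library (circles sham 1 to 3, triangle VO 1, square VO 2, diamond VO 3), with the mean and SD of each group; the axes do not start at 0, and Aldoa, with mean shares of 99.96% and 99.90%, is left out. In the panels of Pfkm, Pgam2 and Eno3 all VO points lie under all sham points, with VO 2 the nearest to them.

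Among the other genes of the pathway, 48 of the 63 in the table were tested, and 0 passed after adjustment (limma, Benjamini-Hochberg). At an unadjusted p under 0.05, 1 was lower and 2 were higher in VO. The groups lay apart in 3 genes with lower and 3 with higher VO libraries, or 6.25% each way, against 12.9% and 8.25% of all tested genes, and the unadjusted shares of 2.08% and 4.17% stood against 8.08% and 3.89%, so that neither sets the list apart. The median over the list was -0.01. Slc16a1, the carrier MCT1 for lactate and pyruvate, was at 65.4, 65.8 and 62.5 FPKM in sham and at 39.8, 39.2 and 57.6 FPKM in VO. The sham libraries were tight and every VO library was lower, with a log2 fold change of -0.53 ± 0.16 (unadjusted p = 0.0149, adjusted p = 0.404). Pdk4, the kinase that shuts pyruvate dehydrogenase when fatty acids are the fuel, was at 139.5, 77.3 and 119 FPKM in sham and at 147, 193 and 233 FPKM in VO, with groups apart and a log2 fold change of 0.79 ± 0.26 (unadjusted p = 0.0189, adjusted p = 0.404). Of the other kinases of the complex, Pdk3 was at 12.3 to 13.1 FPKM in sham and 10.7 to 11.5 FPKM in VO, with every VO library lower, and Pdk1 and Pdk2 overlapped between the groups, although Pdk1 lay apart on the higher side in TPM and with fragment totals. G6pdx, which draws glucose-6-phosphate into the pentose phosphate pathway, was at 3.92, 4.05 and 3.77 FPKM in sham and at 5.85, 5.52 and 9.44 FPKM in VO, a log2 fold change of 0.77 ± 0.20 (unadjusted p = 0.00710, adjusted p = 0.373) that was 0.53 or more whichever library was left out.

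The following were named after their values were seen. Of the other glycogen phosphorylases, Pygb, the brain form, was read above Pygm, at 212 ± 8.61 FPKM in sham and 174 ± 23.5 FPKM in VO, with every VO library lower. Pygl, the liver form, and Gpd1, the glycerol-3-phosphate dehydrogenase of the cytosol, were high in VO 3 alone, at 7.38 and 103.8 FPKM against at most 2.15 and 11.4 FPKM in the other libraries.

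Some rows share sequence with other genes. In all, 9 members have over 5% of their exon bases in common with another annotated gene, among them Mpc1 (23.1%), Pfkfb2 (19.5%), Pdha1 (16.1%), Pkm (15.3%) and Pfkm (10.7%, with Senp1), and the strand setting of the counting is not given in the sources used here.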

How the data were processed

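RNA-seq of 3 sham and 3 VO right atrial libraries at P21 was used, grouped by the treatment in the labels. The deposited values were FPKM, computed by the authors from gene length and counts. Reads were aligned with HISAT2 2.0.5 and counted with featureCounts 1.5.0-p3, and the submitters' processing notes name GRCm38 (mm10); coordinates were equal for 98.4% of 54059 genes shared with GENCODE M21. A last line that was incomplete (1 line) was dropped from the table of 54093 genes, and 0 columns of values were left unused. Each FPKM value gave back whole fragments for 100% of values (tolerance 0.01). The scaling factor, the median ratio of a library's genes to their geometric mean over libraries, was 1 in each. The deposited values thus already stood at this scaling, and the values as deposited and as scaled were the same. Sham 1 held 16494342 fragments at 15.6 per kilobase and FPKM, and VO 1 held 16852482 at 18.1. The deposited FPKM was thus not divided by these totals. Intervals of depth cover counting error only.

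The 12627 genes whose mean reached 1 FPKM were tested on log2(FPKM + 0.1) with limma 3.58.1 in R 4.3.3, VO against sham, with a trend of variance, two-sided; p-values were adjusted by Benjamini-Hochberg over every tested gene, and 0.05 was the limit. The fit was tested on simulated data with planted changes. Isoform shares were compared with exact permutation tests (scipy 1.17.1, Python 3.11.15), and figures drawn with matplotlib 3.10.9. The deposited values are FPKM, and the authors' DESeq2 1.16.1 test on counts was not repeated. By that test the study called far more genes than here, in both directions, at an adjusted p under 0.05. Fragments recovered from FPKM were used for voom as an alternative. The qRT-PCR was not analysed here. All 34 members are named, and of the other pathway genes and regulators those with an unadjusted p under 0.05 or with a level a result turns on. Members, lists and tests were chosen with earlier results of these data known. Replicate numbers were not taken as pairs, since the correlation of deviations from the group means between libraries of the same number was -0.108, 0.0112 and -0.0292. Alternatives were other pseudocounts, filters, scalings and variance models, voom on recovered fragments, a replicate block and each library left out.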

Additional observations from a re-analysis of the deposited data

How the results depend on the processing

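No member passed the adjusted test in any of the 20 alternatives, with a lowest adjusted p of 0.290. Of these, the fit on FPKM as deposited repeats the main fit, since every scaling factor was 1, and so adds no check. The number of members lower at an unadjusted p under 0.05 was 1 with all settings as described. It was 2 with a mean FPKM of at least 0.1, of at least 5 or no filter. There 1165 of 19053, 821 of 7156 and 1221 of 26706 tested genes were lower. It was 2 with robust variance and 5 with voom, where 1015 and 1070 of 12627 tested genes were lower. It was 0 with quantile normalization and 0 with array weights. With a library left out it was 0 (without VO 1) to 8 (without VO 3). Without VO 3, 974 of 12603 genes were lower. The number higher, 0, was 1 with array weights and 0 to 1 with a library left out; this 1 was Gapdh. Genes called over all tested genes, 1, were 2 with a pseudocount of 1, 3 with a mean FPKM of at least 0.1, 3 without a variance trend, 0 with quantile normalization, 0 with robust variance and 0 whichever library was left out. With the replicate block 0 genes were called, and 608 were lower and 324 higher at an unadjusted p under 0.05 against 1020 and 491; the numbers are only names, so this says nothing of the size of an effect. Alternatives chosen after seeing the data put the lower members without overlap, 8, at 2 in TPM and 1 with fragment totals. Of all tested genes 5.67% and 7.57% were lower in this way there. The count was 9 without VO 1 and 20 without VO 3, against 15.2% and 19.9% of all tested genes. Fewer libraries make separation easier. TPM and fragment totals turned the balance of all genes from 491 higher and 1020 lower to 1085 and 488, and to 945 and 630. Of the members, 22 kept their sign in all alternatives and 11 did not. Reversed log2 fold changes were 0.031 for Pdhb and 0.043 for Pdk2 with quantile normalization, 0.066 (TPM) and 0.021 (fragment totals) for Phka1, 0.12, 0.029, 0.073 and 0.15 for Phkg1 (TPM, quantile, fragment totals, array weights), and 0.033 and 0.070 for Ppp1r3c (TPM, quantile). With a library left out the ranges crossed 0 for Pfkl (-0.22 to 0.24), Pfkp (-0.045 to 0.072), Pfkfb2 (-0.039 to 0.22), Pgam1 (-0.085 to 0.34), Pdk1 (-0.025 to 0.11), Pdk2 (-0.25 to 0.047), Gys1 (-0.40 to 0.040) and Phkg1 (-0.24 to 0.25). In recovered fragments, which are not divided by gene length, the share differences were -4.98 points for Pfkm, -8.77 for Pgam2 and -14.2 for Eno3. Depth limits Aldoc, with 8 to 32 fragments.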

Other observations

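Of 24 regulators of glucose metabolism in the table, all were tested and 0 passed after adjustment (limma, Benjamini-Hochberg), with a median log2 fold change of -0.05. At an unadjusted p under 0.05, 3 were lower and 2 higher in VO, against 8.08% and 3.89% of all tested genes. Klf15, a transcription factor that raises Slc2a4 in muscle, was at 34.1, 33.1 and 33.8 FPKM in sham and at 10.4, 24.5 and 23.3 FPKM in VO. The sham libraries lay close together and every VO library was lower. Its log2 fold change was -0.89 ± 0.31 (adjusted p = 0.406), or -0.49 without VO 1. Esrra, a nuclear receptor of energy metabolism, was at 53.4, 43.1 and 38.2 FPKM in sham and at 21.4, 37.8 and 33.3 FPKM in VO, or -0.57 ± 0.23 on the log2 scale (adjusted p = 0.414), with sham 3 and VO 2 almost equal. Irs2, an adaptor of the insulin receptor, was at 4.95 to 7.02 FPKM in sham and 3.66 to 4.72 FPKM in VO, or -0.54 ± 0.16 on the log2 scale (adjusted p = 0.404).

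The higher ones were Foxo1, which insulin signalling keeps out of the nucleus, and the growth regulator Myc. Foxo1 was at 6.86, 7.89 and 7.45 FPKM in sham and at 8.89, 9.11 and 10.3 FPKM in VO, a difference of 0.35 ± 0.11 on the log2 scale (adjusted p = 0.404) that was 0.28 to 0.39 whichever library was left out. Myc was at 1.51 to 1.88 FPKM in sham and 2.15 to 3.38 FPKM in VO, or 0.53 ± 0.21 higher on the log2 scale (adjusted p = 0.411).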
